A study of Mus musculus with 18 samples.

Results

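The 8 myeloid chemokine ligands described here are Ccl2, Ccl3, Ccl4, Ccl6, Ccl7, Ccl9, Cxcl2 and Cxcl16, taken by name from the 25629 rows of each of 2 tables of gene expression. All 8 were listed in both tables, in capitals as CCL2, CCL3, CCL4, CCL6, CCL7, CCL9, CXCL2 and CXCL16. The RNA came from C57Bl/6 LSK cells, the lineage-negative, Sca-1- and c-Kit-positive fraction of bone marrow that holds stem cells and early progenitors, and was sequenced in 18 libraries, 3 in each of 6 groups. The cultured groups were irradiated with DL1, irradiated without DL1, control with DL1 and control without DL1. The freshly sorted groups were irradiated and control. Irradiated mice had received 2.5 Gy from a caesium source and had recovered for at least 9 weeks. Each cultured library started from 200 LSK cells of 1 mouse, which were grown for 6 days with SCF, Flt3L, IL-11 and IL-6 in every group and then sorted again as LSK cells. Each freshly sorted library pooled cells of 3 mice. DL1 was read as the Notch ligand Delta-like 1, which the labels do not spell out. They give neither how it was presented to the cells nor whether a replicate number stands for 1 mouse across groups. The p-values below measure the spread between these libraries. In bulk libraries such as these, fewer cells of a type and less RNA per cell cannot be told apart.

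Chemokines are small secreted proteins that direct the movement of leukocytes through G-protein-coupled receptors. In bone marrow and inflamed tissue, monocytes, macrophages and neutrophils are major producers of the ligands described here. Ccl2 and Ccl7 bind Ccr2 and draw monocytes out of the marrow. Ccl3 and Ccl4 are macrophage inflammatory proteins that draw monocytes and T cells, and Ccl3, a ligand of Ccr1, is known as an inhibitor of the cycling of early haematopoietic progenitors. Ccl6 and Ccl9 are mouse ligands of Ccr1. Cxcl2 binds Cxcr2 and draws neutrophils, and Cxcl16, the ligand of Cxcr6, is made as a transmembrane protein that the proteases Adam10 and Adam17 can release.

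All of these genes except Cxcl2, on chromosome 5, lie on mouse chromosome 11. Ccl9, Ccl6, Ccl3 and Ccl4 are consecutive protein-coding genes there, and Ccl2 and Ccl7 are neighbours, in the RefSeq gene table for GRCm38.p6. Ccl9 and Ccl6 fell with DL1 in the cultures while their neighbours Ccl3 and Ccl4 did not pass the test, so the 250 bases before the RefSeq start site of 3 of these genes are shown, with those of Cxcl2 for comparison. RefSeq promoter sequence was at hand for these 4 of the 8 genes. Capitals mark matches to the kappaB motif (GGG, then any 3 bases, then TTCC) and the AP-1 motif TGANTCA on either strand. The sequences run 5′ to 3′ on the gene's strand.
Ccl9, chr11:83578637-83578886, minus strand: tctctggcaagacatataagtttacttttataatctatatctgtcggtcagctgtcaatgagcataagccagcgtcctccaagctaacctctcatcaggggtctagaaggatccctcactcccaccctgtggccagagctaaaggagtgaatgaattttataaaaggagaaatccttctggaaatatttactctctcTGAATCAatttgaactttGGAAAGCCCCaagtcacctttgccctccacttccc
Ccl6, chr11:83593088-83593337, minus strand: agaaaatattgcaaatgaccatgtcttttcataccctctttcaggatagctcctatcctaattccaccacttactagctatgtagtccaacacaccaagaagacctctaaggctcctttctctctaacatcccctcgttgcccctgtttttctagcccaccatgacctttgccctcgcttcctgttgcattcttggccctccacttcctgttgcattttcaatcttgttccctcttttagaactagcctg
Ccl3, chr11:83649379-83649628, minus strand: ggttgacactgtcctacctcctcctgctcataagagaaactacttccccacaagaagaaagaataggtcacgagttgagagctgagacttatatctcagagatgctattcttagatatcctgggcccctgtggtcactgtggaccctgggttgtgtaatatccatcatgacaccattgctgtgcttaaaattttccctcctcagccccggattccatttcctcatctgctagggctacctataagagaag
Cxcl2, chr5:90903649-90903898, plus strand: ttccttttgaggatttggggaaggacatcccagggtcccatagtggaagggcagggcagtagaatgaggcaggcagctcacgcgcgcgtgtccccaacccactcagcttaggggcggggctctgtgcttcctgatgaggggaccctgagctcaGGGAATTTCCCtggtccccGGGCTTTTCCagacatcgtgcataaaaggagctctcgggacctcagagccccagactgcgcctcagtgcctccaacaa
The kappaB motif was found in the windows of Cxcl2 and Ccl9, and in 5.56% of 32851 RefSeq promoter windows of the same kind, which include a further 50 bases after the start. In Cxcl2 it matched from base -97 on the gene's strand, from base -96 on the other strand, overlapping the first match, and again from base -78. In Ccl9 it matched on the other strand from base -35. The AP-1 motif matched in Ccl9 from base -53 and was held by 7.81% of windows. The RBPJ motif TGGGAA, held by 25.6% of windows, matched in Ccl9 on the other strand across the start, from base -5, and so is not in capitals. The PU.1 motif GAGGAAG, held by 13.6% of windows, matched in Cxcl2 after the start. The C/EBP motif TTGCNNAA, held by 10.8% of windows, matched in 0 of the 4. These matches describe letters in the windows and were not measured as binding sites.

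Expression was given in FPKM, which scales fragments by the length of the transcript and the size of the library, so that levels can be compared between genes of a table. The 2 tables were normalized separately, and levels were not tested across them. Genes of the sort markers were present in every library, Kit at 31.6 to 40.2 FPKM and Ly6a, which encodes Sca-1, at 432 to 628 FPKM in the cultures, and Kit at 97.5 to 119 FPKM and Ly6a at 110.2 to 211 FPKM in freshly sorted cells. Relative depth, read from the steps between low values, was 0.756 to 1.09 of the first control in the cultures, except for irradiated replicate 2 with DL1 at 0.488. It was 0.645 to 1 of the first control among the freshly sorted libraries.

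Ccl9 was the most abundant of the 8 ligands in every group, and its lowest library lay above the highest library of any other ligand of that group. It contributed 61.6 to 65.5% of the summed FPKM of the 8 ligands in irradiated cultures with DL1, 49.7 to 56.5% in irradiated cultures without DL1, 61.4 to 65.2% in control cultures with DL1 and 57.0 to 67.4% in control cultures without DL1. In freshly sorted cells that share was 56.9 to 64.3% in irradiated and 47.4 to 55.9% in control libraries. In cultures without DL1, irradiated or control, Ccl6 and Cxcl16 came next and overlapped each other in level. With DL1, Cxcl16 overlapped Ccl3 and Ccl4 in irradiated cultures, where Ccl6 stood above them, and in control cultures Ccl6, Ccl3, Cxcl16 and Ccl4 each overlapped the next in mean level. In freshly sorted cells the ligands after Ccl9 were Ccl4 and Ccl3, which overlapped each other. Ccl2, Cxcl2 and Ccl7 took the last places in all 6 groups. Ccl7 had the lowest mean in each group, and its libraries overlapped those of the gene above it in freshly sorted cells only.

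The plot of ligand levels in the cultures shows these values by library.

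**Figure D1:**
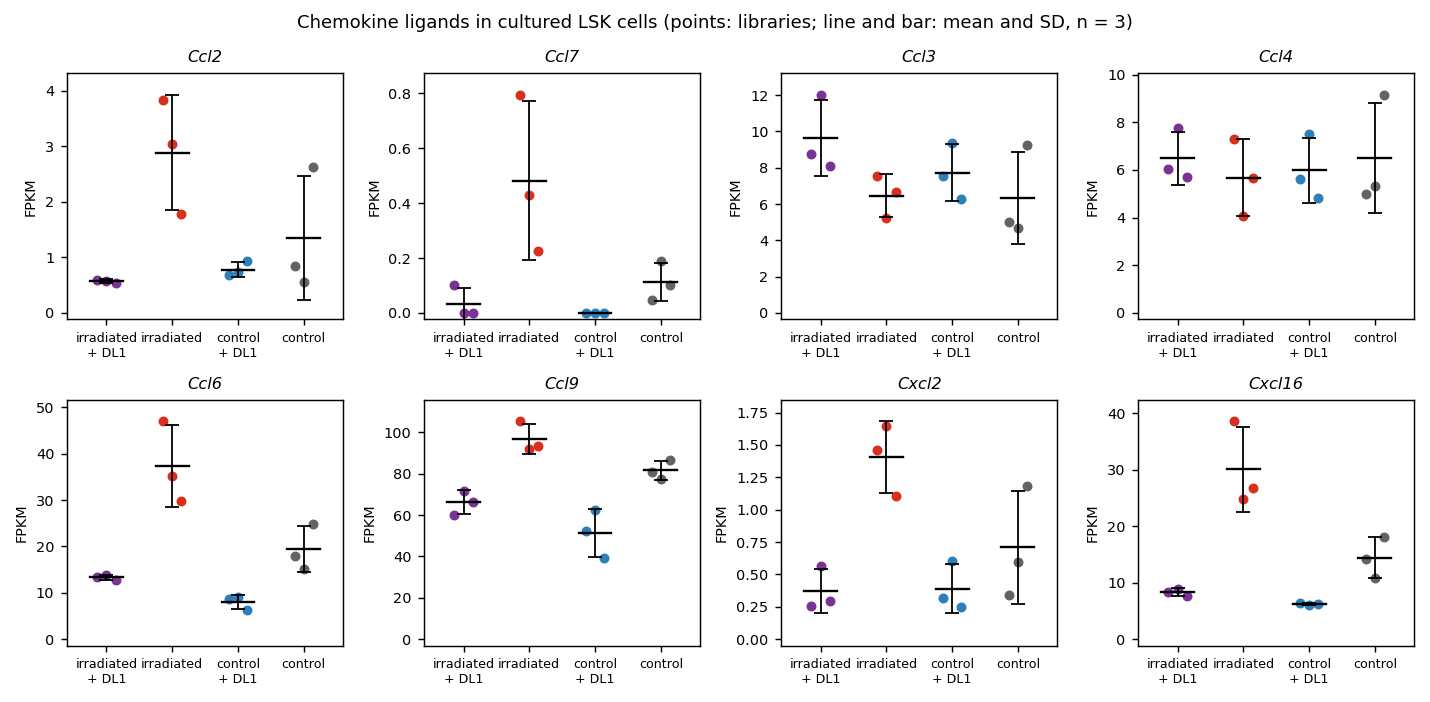
FPKM of the 8 chemokine ligands in the 12 cultured libraries, one panel per gene with its own linear axis. Points are libraries, the line and bar are mean and SD of 3, and the groups run from irradiated with DL1 on the left to control on the right. Ccl6 and Cxcl16 are highest in irradiated cultures without DL1. Ccl4 overlaps among the 4 groups. Ccl3 does so too, except that irradiated libraries with DL1 lie above irradiated libraries without it.

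The first comparison asked whether cells of irradiated mice differed from control cells after culture without DL1. Of the 8 ligands, 6 had a mean of at least 1 FPKM over the 12 cultures and were tested, with limma on log2(FPKM + 1) over 12011 genes and Benjamini-Hochberg adjustment at 0.05. Ccl2, Ccl6 and Cxcl16 rose in irradiated cultures and none of the tested ligands fell, whereas 13.8% of all genes tested rose and 15.9% fell. The median change of the 6 was 0.52 on the log2 scale, against -0.026 over all genes tested. Ccl2 passed the minimum only through the cultures without DL1, its mean being under 1 FPKM in both groups with DL1, so the count is a description. Over the same libraries the summed FPKM of 15 monocyte and macrophage markers was 4063 to 6007 in irradiated and 2183 to 3102 in control cultures. This sum mostly follows Lyz2, by far the most abundant of the 15, with a mean of 1729 FPKM over the cultures. The part of these markers in the changes of the ligands was not tested.

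Cxcl16, which tethers and attracts cells bearing Cxcr6, had 38.6, 24.8 and 26.8 FPKM in irradiated cultures, against 14.2, 10.9 and 18.1 FPKM in control cultures. Every irradiated library lay above every control library. The change was 1.01 ± 0.17 (log2, SE; limma adjusted p = 0.00154). In the RefSeq gene table Cxcl16 overlaps Zmynd15, a gene on the opposite strand. The library kit does not mark strand, so reads from the shared stretch cannot be assigned to either gene. Zmynd15 rose as well, by 0.75 ± 0.18 (log2, SE; limma adjusted p = 0.00906), with 5.12, 3.28 and 3.17 FPKM in irradiated and 1.63, 1.296 and 2.77 FPKM in control cultures. Its part in the value of Cxcl16 was not tested.

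Ccl6, a Ccr1 ligand of mouse macrophages, had 47.0, 35.2 and 29.8 FPKM in irradiated cultures, against 18.02, 15.2 and 24.9 FPKM in control cultures. The groups did not overlap, and the change was 0.91 ± 0.18 (log2, SE; limma adjusted p = 0.00385). In the RefSeq table its span overlaps a second gene, E230016K23Rik. Ccl9, the neighbouring gene and also a Ccr1 ligand, had 105, 91.8 and 93.5 FPKM in irradiated cultures, against 81.0, 77.6 and 86.7 FPKM in control cultures. These groups did not overlap either, but the difference of 0.24 ± 0.13 did not pass the test (log2, SE; limma adjusted p = 0.178; 95% interval from -0.039 to 0.52).

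Ccl2, the main monocyte attractant of the Ccr2 ligands, had 3.84, 3.04 and 1.78 FPKM in irradiated cultures, against 0.847, 0.560 and 2.63 FPKM in control cultures. Control replicate 3 lay within the irradiated range, and the change was 0.79 ± 0.26 (log2, SE; limma adjusted p = 0.0401). The values stood on few fragments, 73, 50 and 32 in irradiated and 18, 9 and 52 in control cultures, as read from the steps of the FPKM scale. The call was lost without control replicate 1 or 2 or irradiated replicate 1 or 2, with limma adjusted p between 0.103 and 0.168. It was also lost when only the 2 groups were fitted, with limma adjusted p = 0.122, or when no minimum was set, with 0.0860.

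Ccl7, whose gene follows Ccl2 and whose product shares Ccr2, was below the minimum of 1 FPKM. It had 15, 7 and 4 fragments in irradiated cultures, against 1, 3 and 2 fragments in control cultures, or 0.794, 0.428 and 0.224 FPKM against 0.0474, 0.188 and 0.102 FPKM. All 3 irradiated libraries were above all 3 controls. Cxcl2, the neutrophil attractant, was below the minimum too, with 1.46, 1.65 and 1.103 FPKM in irradiated and 0.345, 0.592 and 1.19 FPKM in control cultures. Control replicate 3 lay within the irradiated range. With no minimum set, the difference of Ccl7 was 0.40 ± 0.11 (log2, SE; limma adjusted p = 0.0364) and that of Cxcl2 was 0.52 ± 0.17 (log2, SE; limma adjusted p = 0.0694).

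The macrophage inflammatory proteins Ccl3 and Ccl4 did not pass the test. Ccl3 had 7.52, 5.22 and 6.66 FPKM in irradiated cultures, against 4.998, 4.70 and 9.25 FPKM in control cultures, a difference of 0.070 ± 0.22 (log2, SE; limma adjusted p = 0.836; 95% interval from -0.40 to 0.54). Ccl4 had 7.30, 4.06 and 5.66 FPKM in irradiated cultures, against 5.01, 5.31 and 9.15 FPKM in control cultures, a difference of -0.15 ± 0.22 (log2, SE; limma adjusted p = 0.634; 95% interval from -0.63 to 0.33). In both genes, control replicate 3 was the highest of the 6 libraries. The RefSeq table has the spans of Ccl3 and Ccl4 overlapping, and how the authors assigned reads there is not given in the sources used here.

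DL1 was then compared with its absence within irradiated cultures. Here 4 of the 6 tested ligands fell, Cxcl16, Ccl6, Ccl2 and Ccl9, and 0 rose, whereas 17.0% of all genes tested fell and 24.4% rose. The median change of the 6 was -0.91 on the log2 scale, against 0.061 over all genes tested. Since Ccl2 passed the minimum of 1 FPKM only through the cultures without DL1, this count and this median are descriptions too. Cxcl16 had 8.43, 8.95 and 7.58 FPKM with DL1, against 38.6, 24.8 and 26.8 FPKM without, and fell by 1.71 ± 0.17 (log2, SE; limma adjusted p = 9.72e-06). Ccl6 had 13.5, 13.8 and 12.7 FPKM with DL1, against 47.0, 35.2 and 29.8 FPKM without, and fell by 1.39 ± 0.18 (log2, SE; limma adjusted p = 8.60e-05). For both genes every library with DL1 lay below every library without it, and the libraries with DL1 were close together, with an SD of 0.691 FPKM for Cxcl16 and 0.558 FPKM for Ccl6. Zmynd15, which overlaps Cxcl16, fell by 1.34 ± 0.18 (log2, SE; limma adjusted p = 1.00e-04), given here as a description. The monocyte and macrophage markers summed to 1091 to 1432 FPKM with DL1, against 4063 to 6007 FPKM without.

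Ccl2 had 0.596, 0.578 and 0.536 FPKM in irradiated cultures with DL1, against 3.84, 3.04 and 1.78 FPKM in those without, and fell by 1.27 ± 0.26 (log2, SE; limma adjusted p = 0.00246). The fragments behind these values were 12, 6 and 12 with DL1 and 73, 50 and 32 without. Since Ccl2 passed the minimum only through the cultures without DL1, which favours a fall, its p-value is a description. With no minimum set, its limma adjusted p was 0.00797. Ccl9, the most abundant ligand, had 60.3, 71.7 and 66.5 FPKM with DL1, against 105, 91.8 and 93.5 FPKM without. It fell by 0.54 ± 0.13 (log2, SE; limma adjusted p = 0.00539), with no overlap between the groups.

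The ligands below the minimum of 1 FPKM were lower with DL1 in every irradiated library. Ccl7 had 2, 0 and 0 fragments with DL1, against 15, 7 and 4 without, and Cxcl2 had 0.256, 0.565 and 0.296 FPKM with DL1, against 1.46, 1.65 and 1.103 FPKM without. With no minimum set, both fell, Ccl7 by 0.50 ± 0.11 (log2, SE; limma adjusted p = 0.00745) and Cxcl2 by 0.81 ± 0.17 (log2, SE; limma adjusted p = 0.00633).

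Ccl3 and Ccl4 again did not pass the test. Ccl3 had 8.78, 12.01 and 8.12 FPKM in irradiated cultures with DL1, against 7.52, 5.22 and 6.66 FPKM in those without. All 3 libraries with DL1 were the higher ones, and the difference was 0.50 ± 0.22 (log2, SE; limma adjusted p = 0.0812; 95% interval from 0.031 to 0.98). It passed, with limma adjusted p = 0.0422, when only the 2 groups were fitted. Ccl4 had 6.03, 7.75 and 5.70 FPKM with DL1, against 7.30, 4.06 and 5.66 FPKM without, a difference of 0.19 ± 0.22 (log2, SE; limma adjusted p = 0.516; 95% interval from -0.29 to 0.67).

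In control cultures, DL1 gave 3 tested ligands that fell, Ccl6, Cxcl16 and Ccl9, and 0 that rose, whereas 12.3% of all genes tested fell and 26.3% changed in either direction. The median change was -0.49 on the log2 scale, against 0.037 over all genes tested, again a description since it includes Ccl2. Ccl6 had 8.63, 9.02 and 6.38 FPKM with DL1, against 18.02, 15.2 and 24.9 FPKM without, and fell by 1.16 ± 0.18 (log2, SE; limma adjusted p = 4.72e-04). Cxcl16 had 6.33, 6.09 and 6.17 FPKM with DL1, against 14.2, 10.9 and 18.1 FPKM without, and fell by 1.07 ± 0.17 (log2, SE; limma adjusted p = 4.96e-04). Ccl9 had 52.5, 62.3 and 39.4 FPKM with DL1, against 81.0, 77.6 and 86.7 FPKM without, and fell by 0.68 ± 0.13 (log2, SE; limma adjusted p = 0.00190). None of these 3 genes overlapped between control cultures with and without DL1. The monocyte and macrophage markers summed to 641 to 856 FPKM with DL1, against 2183 to 3102 FPKM without.

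Ccl2, which fell with DL1 in irradiated cultures, had 0.675, 0.735 and 0.926 FPKM in control cultures with DL1, against 0.847, 0.560 and 2.63 FPKM in those without. These groups overlapped, and the difference of -0.30 ± 0.26 did not pass (log2, SE; limma adjusted p = 0.437; 95% interval from -0.88 to 0.27). Ccl7 had 0 fragments in all 3 control cultures with DL1, each of which allows up to 3 fragments, against 1, 3 and 2 fragments without. Cxcl2 had 0.318, 0.602 and 0.252 FPKM with DL1, against 0.345, 0.592 and 1.19 FPKM without, and overlapped. Ccl3 differed by 0.29 ± 0.22 (log2, SE; limma adjusted p = 0.354; 95% interval from -0.18 to 0.77), with 7.54, 9.37 and 6.28 FPKM with DL1 and 4.998, 4.70 and 9.25 FPKM without. Without control replicate 3, Ccl3 passed at 0.56 (log2; limma adjusted p = 0.0417). Ccl4 had 5.62, 7.50 and 4.83 FPKM with DL1 and 5.01, 5.31 and 9.15 FPKM without, a difference of -0.077 ± 0.22 (log2, SE; limma adjusted p = 0.827; 95% interval from -0.56 to 0.40).

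Irradiated and control cultures were also compared in the presence of DL1. Of the 6 tested ligands, limma called 0, and 3 had an unadjusted p under 0.05, while 3.16% of all genes tested were called and 18.6% had an unadjusted p under 0.05. Ccl6 had 13.5, 13.8 and 12.7 FPKM in irradiated cultures with DL1, against 8.63, 9.02 and 6.38 FPKM in control cultures with DL1. The groups did not overlap, and the difference was 0.68 ± 0.18 (log2, SE; limma adjusted p = 0.0648; 95% interval from 0.29 to 1.08). Cxcl16 had 8.43, 8.95 and 7.58 FPKM in irradiated and 6.33, 6.09 and 6.17 FPKM in control cultures with DL1, again with no overlap and a difference of 0.37 ± 0.17 (log2, SE; limma adjusted p = 0.259; 95% interval from 0.0073 to 0.73). With only these 2 groups fitted, both passed, Ccl6 with limma adjusted p = 0.0145 and Cxcl16 with limma adjusted p = 0.0187. In the same libraries the monocyte and macrophage markers summed to 1091 to 1432 FPKM in irradiated and 641 to 856 FPKM in control cultures with DL1, and 5 of 15 rose. The neutrophil markers summed to 1141 to 1678 FPKM in irradiated and 624 to 736 FPKM in control cultures with DL1, and 4 of 7 rose. The part of these markers in the differences was not tested.

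Ccl9 had 60.3, 71.7 and 66.5 FPKM in irradiated cultures with DL1, against 52.5, 62.3 and 39.4 FPKM in control cultures with DL1. These overlapped through control replicate 2, and the difference was 0.38 ± 0.13 (log2, SE; limma adjusted p = 0.144; 95% interval from 0.098 to 0.66). Without control replicate 2 with DL1 it was 0.53 and passed (log2; limma adjusted p = 0.0409). Ccl2 differed the other way, with 0.596, 0.578 and 0.536 FPKM in irradiated and 0.675, 0.735 and 0.926 FPKM in control cultures with DL1, by -0.18 ± 0.26 (log2, SE; limma adjusted p = 0.743; 95% interval from -0.75 to 0.40). The differences of Ccl3 and Ccl4 were 0.28 ± 0.22 and 0.11 ± 0.22 (log2, SE), with limma adjusted p of 0.513 and 0.811.

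The plot of changes sets these comparisons side by side. They share libraries, so that a control culture that stands high in a gene enters more than 1 of them.

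**Figure D2:**
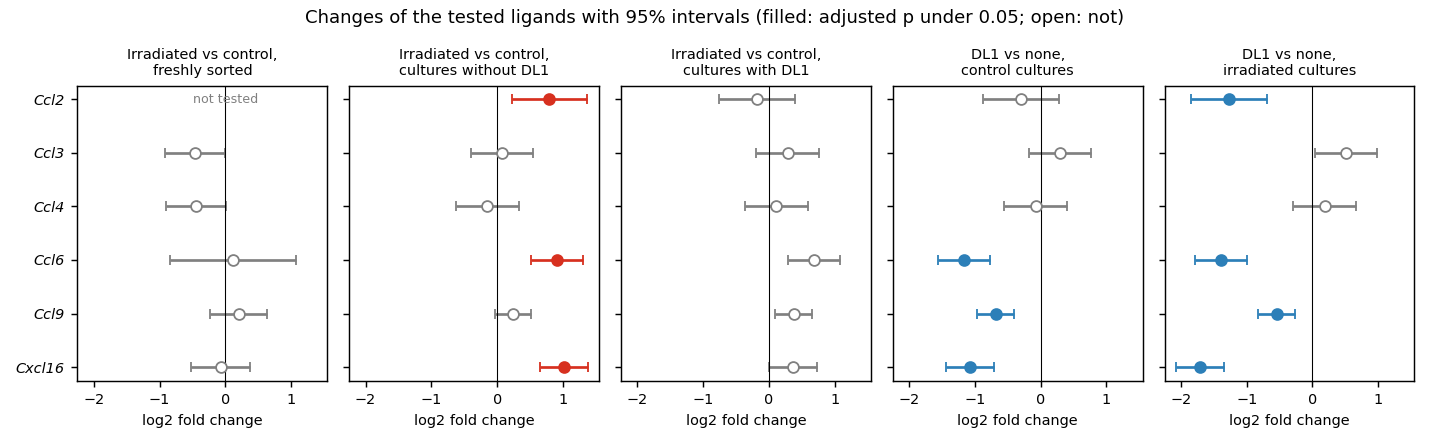
Log2 fold changes of the tested ligands with their 95% intervals in 5 comparisons, on log2(FPKM + 1), from limma. Filled points have an adjusted p under 0.05. The filled points lie right of 0 for Ccl2, Ccl6 and Cxcl16 in irradiated against control cultures without DL1, and left of 0 in both DL1 comparisons for Ccl6, Ccl9 and Cxcl16.

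Whether the irradiation change itself depended on DL1 was tested as the difference between the change with DL1 and the change without. By limma, 0 of the 6 ligands were called and 2 had an unadjusted p under 0.05, while 0.0749% of all genes were called and 10.4% had an unadjusted p under 0.05. For Ccl2 the difference of changes was -0.97 ± 0.37 (log2, SE; limma adjusted p = 0.400; 95% interval from -1.78 to -0.16). For Cxcl16 it was -0.64 ± 0.24 (log2, SE; limma adjusted p = 0.370; 95% interval from -1.16 to -0.13). The other 4 ligands ranged from -0.23 ± 0.25 for Ccl6 to 0.26 ± 0.31 for Ccl4 (log2, SE). So the changes with DL1 and without it were not shown to differ for any of the ligands tested.

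Irradiated cultures with DL1 were finally set against control cultures without DL1, the untreated state. Cxcl16 fell by 0.70 ± 0.17 (log2, SE; limma adjusted p = 0.0108), with 8.43, 8.95 and 7.58 FPKM against 14.2, 10.9 and 18.1 FPKM and no overlap. It was the 1 of 6 ligands that fell, whereas 9.44% of all genes tested fell, and 0 of the ligands rose, whereas 11.3% of all genes did. Ccl6 differed by -0.48 ± 0.18 (log2, SE; limma adjusted p = 0.0818) and Ccl9 by -0.30 ± 0.13 (log2, SE; limma adjusted p = 0.118). In both, the 3 irradiated libraries with DL1 lay below the 3 control libraries without it, and both passed when only these 2 groups were fitted, with limma adjusted p of 0.0493 and 0.0168. Ccl6 also passed without control replicate 2, with limma adjusted p = 0.0398. Ccl3 differed by 0.58 ± 0.22 (log2, SE; limma adjusted p = 0.0830), which became 0.85 (limma adjusted p = 0.00730) without control replicate 3. Ccl2 and Ccl4 differed by -0.48 ± 0.26 and 0.033 ± 0.22 (log2, SE), with limma adjusted p of 0.227 and 0.935.

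Among themselves, the ligands were compared by the mean absolute difference of their log2(FPKM + 1) over the 12 cultures, after each gene was centred on its own mean. The closest pair was Ccl6 and Cxcl16, at 0.14, followed by Ccl3 and Ccl4, at 0.18. The farthest pair was Ccl3 and Cxcl16, at 0.90. Ccl9 was nearer to Ccl4, at 0.38, and to Ccl6, at 0.38, than to Ccl3, at 0.51. These distances are descriptions over libraries that share groups and depth. They are not scaled to the spread of a gene, whose SD was 0.36 for Ccl3 and 0.29 for Ccl4, against 0.82 for Ccl6 and 0.85 for Cxcl16. The overlap of the spans of Ccl3 and Ccl4 also limits their distance, and its part was not tested.

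By the same measure, over 9142 genes with a mean of at least 5 FPKM, the genes nearest to Cxcl16 were Ctsb, which encodes the lysosomal protease cathepsin B, at 0.078, and Tmem106a at 0.092, against a median of 0.76 over the candidates. Ctsb had 75.3, 78.0 and 67.8 FPKM in irradiated cultures with DL1, 288, 218 and 186 FPKM in irradiated cultures without, 55.8, 59.4 and 54.9 FPKM in control cultures with DL1 and 113, 91.7 and 133 FPKM in control cultures without. Its groups stood in the same order as those of Cxcl16, which is no separate result, since Ctsb was picked for its nearness over these libraries. Nearest to Ccl6 were Fcgr1, which encodes the high-affinity IgG receptor of monocytes and macrophages, at 0.091, and Tmem106a at 0.096, against a median of 0.69. Nearest to Ccl9 were Fcgr2b, the inhibitory IgG receptor, at 0.073, and a gene listed as ANKRD57 at 0.079, against a median of 0.35.

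Ccl2 had less close neighbours, Lpl (lipoprotein lipase) at 0.22 and Hmox1 (haem oxygenase) at 0.22, against a median of 0.55. Nearest to Ccl3 were Tmem176a and Relb, an NF-kappaB subunit, both at 0.16, against a median of 0.30. Nearest to Ccl4 were Dusp1, a phosphatase of MAP kinases, at 0.14 and LOC100503618 at 0.15, against a median of 0.25. The 5 nearest genes of Ccl6, Ccl9 and Cxcl16 were thus at distances under 0.1, whereas those of Ccl2, Ccl3 and Ccl4 were not, although the candidates' medians were lower for Ccl3 and Ccl4 than for Ccl6, Ccl9 or Cxcl16.

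In freshly sorted cells, irradiated LSK cells were compared with control LSK cells without any culture. Of the 8 ligands, 5 passed the minimum of 1 FPKM and were tested among 12890 genes. Limma called 0 of them, and 1, Ccl3, had an unadjusted p under 0.05, while 0.101% of all genes were called and 6.87% had an unadjusted p under 0.05. The median difference of the 5 was -0.073 on the log2 scale, against 0.0084 over all genes tested. Ccl3 had 5.86, 8.78 and 7.83 FPKM in irradiated cells, against 9.43, 14.6 and 8.46 FPKM in control cells. Irradiated replicate 2 lay above control replicate 3, and the difference was -0.46 ± 0.20 (log2, SE; limma adjusted p = 0.723; 95% interval from -0.92 to -0.0020). Ccl4 had 6.83, 8.53 and 9.06 FPKM in irradiated cells, against 8.21, 15.6 and 11.5 FPKM in control cells, a difference of -0.45 ± 0.20 (log2, SE; limma adjusted p = 0.739; 95% interval from -0.91 to 0.0089).

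Ccl9 had 32.3, 39.7 and 34.7 FPKM in irradiated cells, against 27.0, 43.2 and 24.8 FPKM in control cells, a difference of 0.20 ± 0.19 (log2, SE; limma adjusted p = 0.916; 95% interval from -0.23 to 0.63). Ccl6 had 4.07, 10.9 and 3.36 FPKM in irradiated cells, against 2.49, 7.36 and 6.18 FPKM in control cells, and its interval was wide, from -0.84 to 1.07 around 0.11 ± 0.42 (log2, SE; limma adjusted p = 0.986). Replicate 2 was the highest library of its group for both Ccl6 and Ccl9. Cxcl16 was near 1 FPKM throughout, with 0.748, 1.51 and 0.642 FPKM in irradiated and 0.926, 1.24 and 0.952 FPKM in control cells. The difference was -0.073 ± 0.20 (log2, SE; limma adjusted p = 0.983; 95% interval from -0.53 to 0.38). Over the freshly sorted libraries the mean of Cxcl16 was 1.003 FPKM, with 1.04 FPKM in control and 0.968 FPKM in irradiated cells. Cxcl16 thus passed the minimum only through the control group, and its p-value is a description.

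The remaining ligands were at the floor of detection in freshly sorted cells. Ccl2 had 2, 1 and 1 fragments in irradiated and 4, 0 and 1 fragments in control cells. Ccl7 had 0, 1 and 0 fragments in irradiated and 0 fragments in all 3 control libraries. Cxcl2 had 12, 8 and 2 fragments in irradiated and 1, 1 and 10 fragments in control cells. By contrast, Ccl3 rested on 77 to 121 fragments in irradiated and 93 to 135 fragments in control libraries. The plot of ligand levels in freshly sorted cells shows the overlap of the groups.

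**Figure D3:**
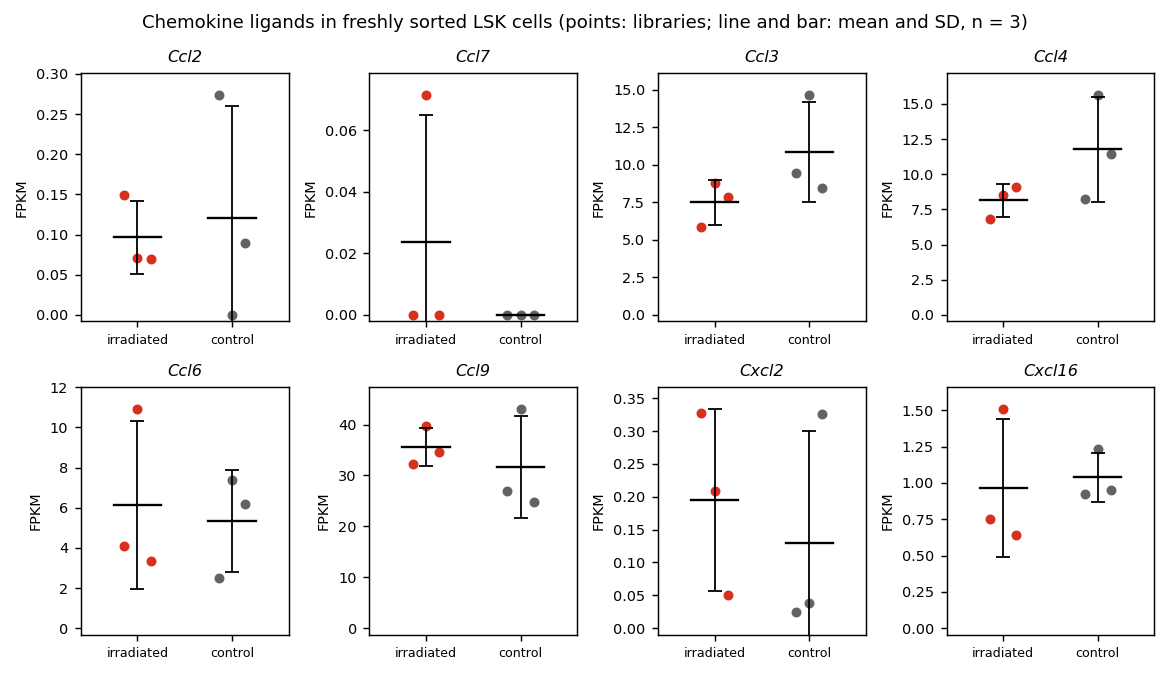
FPKM of the 8 chemokine ligands in the 6 freshly sorted libraries, one panel per gene with its own linear axis, irradiated left of control. Points are libraries, the line and bar are mean and SD of 3, and bars that would pass below 0 end at the axis. The 2 groups overlap in every panel, and most points for Ccl2, Ccl7 and Cxcl2 lie close to 0.

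The receptors of these ligands were listed as 11 genes, of which 10 were found and 4 passed the minimum in the cultures. Ccr2, the receptor of Ccl2 and Ccl7, was the most abundant, at 186 to 207 FPKM in irradiated cultures with DL1, 286 to 369 FPKM in irradiated cultures without, 158 to 189 FPKM in control cultures with DL1 and 254 to 302 FPKM in control cultures without. Ccr2 fell with DL1 by 0.72 ± 0.098 in irradiated and by 0.73 ± 0.098 in control cultures (log2, SE; limma adjusted p = 1.23e-04 and 1.59e-04). So this receptor fell with DL1 in irradiated and in control cultures. The fall of its ligand Ccl2 in irradiated cultures is a description, since Ccl2 passed the minimum only through the cultures without DL1. In control cultures Ccl2 did not pass the test. Its DL1 changes in irradiated and control cultures were not shown to differ (limma adjusted p = 0.400).

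Ccr1, the receptor of Ccl6, Ccl9 and Ccl3, rose in irradiated cultures without DL1, by 0.53 ± 0.15 (log2, SE; limma adjusted p = 0.0210). It had 91.4, 78.2 and 54.3 FPKM in irradiated and 52.9, 43.8 and 54.6 FPKM in control cultures. It was the 1 receptor of 4 that rose, whereas 13.8% of all genes tested did. It fell with DL1 in irradiated cultures by 0.63 ± 0.15 (log2, SE; limma adjusted p = 0.00588). Cxcr2, the receptor of Cxcl2, rose with DL1 where Ccr1 and Ccr2 fell, by 0.75 ± 0.088 in irradiated cultures, where it had 12.9, 12.4 and 12.6 FPKM with DL1 and 6.81, 8.37 and 6.32 FPKM without (log2, SE; limma adjusted p = 4.15e-05). It rose by 0.56 ± 0.088 in control cultures (log2, SE; limma adjusted p = 5.43e-04). Ccrl2, an atypical receptor, passed in neither of these comparisons for irradiated cultures, at 0.28 ± 0.10 for irradiation and -0.27 ± 0.10 for DL1 (log2, SE). Cxcr6, the receptor of Cxcl16, was at most 0.161 FPKM in any culture and was not tested. In freshly sorted cells 0 of 5 tested receptors were called by limma, and 0 had an unadjusted p under 0.05. Of all genes tested there, 0.101% were called and 6.87% had an unadjusted p under 0.05.

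The proteases that release or trim chemokines were listed as 7 genes, of which 6 were tested. With DL1, 5 of them fell and 1 rose in irradiated cultures, whereas 17.0% of all genes tested fell and 24.4% rose. The same counts held in control cultures, whereas 12.3% of all genes tested fell and 26.3% changed in either direction. Adam10 and Adam17, the sheddases of Cxcl16, fell with DL1 in irradiated cultures by 0.42 ± 0.054 and 0.36 ± 0.057 (log2, SE; limma adjusted p = 7.42e-05 and 3.45e-04). Mmp14, a membrane-bound metalloprotease, fell by 1.85 ± 0.19 (log2, SE; limma adjusted p = 1.35e-05), and Dpp4, which trims the amino end of several chemokines, rose by 2.21 ± 0.18 (log2, SE; limma adjusted p = 2.83e-06). Between irradiated and control cultures without DL1, Mmp14 rose by 0.77 ± 0.19 and Dpp4 fell by 0.54 ± 0.18 (log2, SE; limma adjusted p = 0.0112 and 0.0407), while Adam17 differed by 0.16 ± 0.057 (limma adjusted p = 0.0507).

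A further list held 30 other chemokine ligands, of which 7 were tested in the cultures. In irradiated cultures without DL1, 3 rose and 1 fell against control, whereas 13.8% of all genes tested rose and 15.9% fell. The platelet chemokines Pf4 and Ppbp rose by 1.35 ± 0.14 and 1.56 ± 0.20, and the interferon-induced Cxcl10 rose by 0.65 ± 0.17 (log2, SE; limma adjusted p = 1.56e-04, 3.99e-04 and 0.0133). With DL1 in irradiated cultures, 3 rose and 2 fell, whereas 24.4% of all genes tested rose and 17.0% fell. Pf4 and Ppbp fell by 1.79 ± 0.14 and 2.32 ± 0.20, whereas Ccl5, a T cell and monocyte attractant that lies next to Ccl9, rose by 2.69 ± 0.23 (log2, SE; limma adjusted p = 2.51e-06, 3.56e-06 and 3.39e-06). Ccl5 had 24.7, 21.0 and 28.6 FPKM in irradiated cultures with DL1, against 4.86, 2.76 and 1.83 FPKM in those without. The neighbouring genes Ccl5 and Ccl9 thus differed in opposite directions between irradiated cultures with and without DL1. In freshly sorted cells limma called 0 of 8 tested, and 2, Cxcl12 and Pf4, had an unadjusted p under 0.05. Of all genes tested there, 0.101% were called and 6.87% had an unadjusted p under 0.05.

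**Figure D4:**
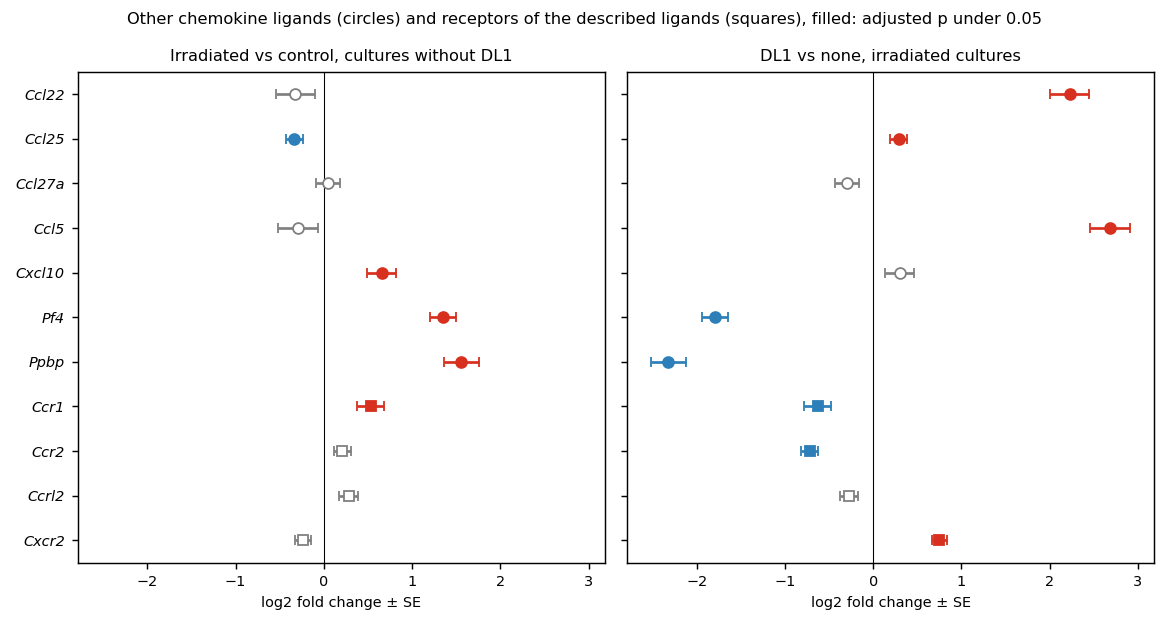
Log2 fold changes with their SE, on log2(FPKM + 1) from limma, of the 7 other chemokine ligands tested (circles) and the 4 receptors tested (squares) in the cultures. Filled symbols have an adjusted p under 0.05. Pf4, Ppbp and Ccr1 lie right of 0 in the left panel and left of 0 in the right panel, where Ccl5 and Ccl22 lie above 2.

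Genes of NF-kappaB signalling, which drives transcription of many chemokine genes, were listed as 16 genes, of which 15 were tested. In irradiated cultures without DL1, 2 rose and 1 fell, shares no higher than the 13.8% and 15.9% of all genes tested. Nfkbie and Rela rose by 0.22 ± 0.069 and 0.16 ± 0.053, and Tnf, an inflammatory cytokine, fell by 0.38 ± 0.093 (log2, SE; limma adjusted p = 0.0296, 0.0379 and 0.0109). With DL1, 7 rose and 0 fell in irradiated cultures, whereas 24.4% of all genes tested rose and 17.0% fell. In control cultures 6 rose and 0 fell with DL1, whereas 12.3% of all genes tested fell and 26.3% changed in either direction. Nfkb1 rose by 0.40 ± 0.061 and Bcl3 by 0.66 ± 0.11 in irradiated cultures (log2, SE; limma adjusted p = 2.84e-04 and 4.40e-04). The other 8 tested genes in irradiated and 9 in control cultures did not pass.

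Most monocyte and macrophage markers rose with irradiation in cultures without DL1 and fell with DL1, as Ccl6 and Cxcl16 did, while Ccl3 and Ccl4 did not pass in these comparisons. Of 15 monocyte and macrophage markers, all tested, 13 rose and 0 fell in irradiated cultures without DL1, with a median of 0.92, against -0.026 over all genes. With DL1, 15 fell in irradiated cultures, with a median of -1.75, against 0.061 over all genes, and 13 fell in control cultures. Of all genes tested, 13.8% rose with irradiation without DL1, and 17.0% fell with DL1 in irradiated and 12.3% in control cultures. C1qb, a complement subunit made by macrophages, rose by 1.90 ± 0.23 with irradiation, and Mrc1, the mannose receptor, fell by 3.86 ± 0.28 with DL1 in irradiated cultures (log2, SE; limma adjusted p = 3.22e-04 and 1.20e-06). None of the 15 was at 0 in a whole group. Their summed FPKM, given with the ligands, did not overlap between the 4 groups, which stood in the same order as the means of Cxcl16 and Ccl6. That sum mostly follows Lyz2, with a culture mean of 1729 FPKM, and so is no reading over all 15 markers alike. The part of these markers in the results for the ligands was not tested.

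Of 9 neutrophil markers, 7 were tested, and 5 rose in irradiated cultures without DL1 while 7 fell with DL1 in irradiated cultures. Their summed FPKM was 1141 to 1678 in irradiated cultures with DL1, 1817 to 3016 in irradiated cultures without, 624 to 736 in control cultures with DL1 and 971 to 1036 in control cultures without. For the counts of this paragraph, 13.8% of all genes tested rose and 15.9% fell with irradiation without DL1. With DL1 in irradiated cultures, 24.4% of all genes tested rose and 17.0% fell. Of 9 tested mast cell and basophil markers, 4 rose with irradiation, and 2 rose and 2 fell with DL1 in irradiated cultures. These DL1 counts were near the shares over all genes. Of 5 tested dendritic cell markers, 0 were called for irradiation by limma, with 2 at an unadjusted p under 0.05, and 2 rose with DL1 in irradiated cultures. Of 7 tested LSK and stem cell markers, Cd34 and Flt3 fell with irradiation, and 3 rose and 2 fell with DL1 in irradiated cultures. Of 4 tested megakaryocyte markers, which include Pf4 and Ppbp, 3 rose with irradiation, and 1 rose and 2 fell with DL1 in irradiated cultures. Of 3 tested T and NK cell markers, 2 rose with irradiation and 2 rose with DL1 in irradiated cultures. Fewer members of the other lists were tested, and with irradiation the B cell marker Cd79b and the erythroid marker Hbb-b1 fell and the endothelial marker Pecam1 rose. In freshly sorted cells the summed FPKM of the monocyte and macrophage markers was 414 to 708 in irradiated and 395 to 713 in control libraries. Limma called 0 of the 12 tested markers there, and 1 had an unadjusted p under 0.05. Of all genes tested in freshly sorted cells, 0.101% were called and 6.87% had an unadjusted p under 0.05. The 1 gene of all lists that was called there was Nkg7, a cytotoxic granule gene, which rose by 0.78 ± 0.093 (log2, SE; limma adjusted p = 0.0238).

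**Figure D5:**
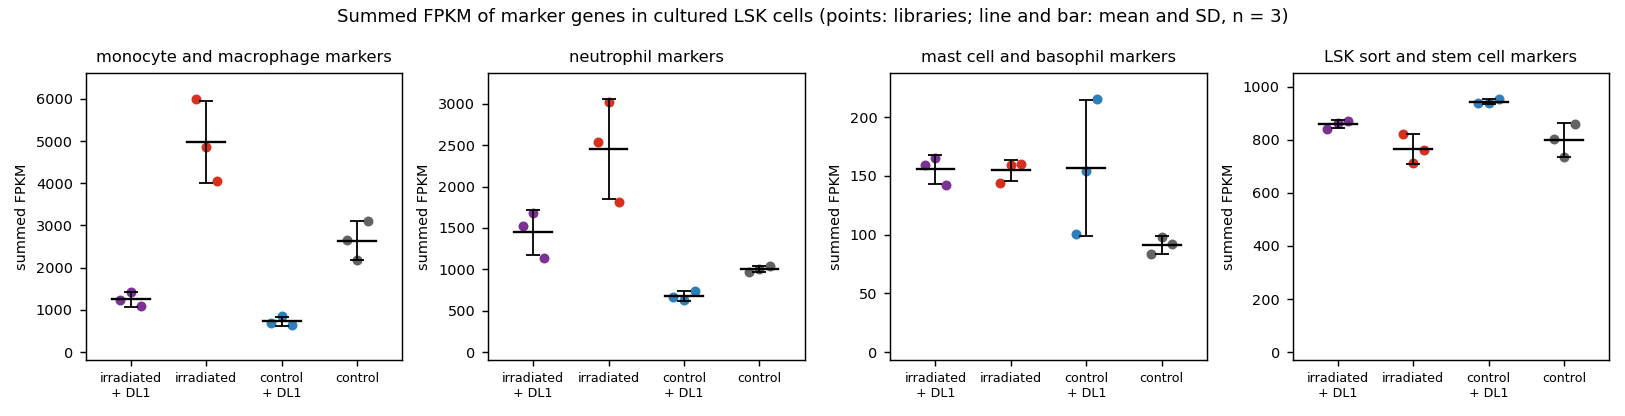
Summed FPKM of 4 marker lists in the 12 cultured libraries, on linear axes from 0, with points for libraries and the line and bar for mean and SD of 3. Monocyte and macrophage markers sum to 4063 to 6007 in irradiated cultures without DL1 and to 641 to 856 in control cultures with DL1. The sums of LSK and stem cell markers all lie between 712 and 956. Each sum mostly follows its most abundant genes, such as Lyz2 among the monocyte and macrophage markers (culture mean of 1729 FPKM). Others are Ly6a and Cd34 (culture means of 558 and 218 FPKM) and S100a8 and S100a9 (682 and 491 FPKM). The LSK sum therefore does not show lower genes such as Flt3, which fell with irradiation without DL1 and rose with DL1 in irradiated cultures.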

How the data were processed

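Total RNA of LSK cells was extracted on miRNeasy columns and made into libraries with the TruSeq RNA v2 kit, which does not mark strand, per the labels' protocols. The authors deposited 1 FPKM table for the cultured and 1 for the freshly sorted libraries, normalized separately. The submitters' processing notes name TopHat 1.4.1, Cufflinks 1.3.0, Cuffdiff and build hg19, a human assembly. The build and annotation behind the values are otherwise not given in the sources used here.

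Columns were matched to samples by title. One cultured column carries its replicate number before DL1 and was read as irradiated replicate 1 with DL1. The source field of controls names irradiated cells, and titles and conditions were followed. Where 28 rows repeated a name, 1 row was kept by its mean, leaving 25601 names.

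Values were tested as log2(FPKM + 1) with limma 3.58.1 (R 4.3.3) with a mean-variance trend, for genes with a mean of at least 1 FPKM over the table. The 4 cultured groups shared 1 fit. A fold change on this scale understates changes of low genes. P-values were adjusted over all genes tested, by Benjamini-Hochberg. The steps were tested on simulated data. FPKM give no read counts, but where all values of a gene were whole multiples of 1 step within 0.02 fragments, fragments were read from them. All 8 ligands were named. Of every other list, counts were given with up to 3 genes of smallest p, and for each tested ligand the 2 nearest genes. One listed gene is not reported here. The members and lists were chosen with earlier results of these data known. Deviations of same-numbered irradiated cultures with and without DL1 correlated at 0.235, 0.145 and 0.355, so a replicate block was fitted there as an alternative. Other alternatives were pseudocounts of 0.1 and 5, other minimums, median-ratio scaling, fewer groups in the fit, no trend for the difference of changes, and leaving out each library.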

Additional observations from a re-analysis of the deposited data

Results flagged for a closer look

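Of the chemokine ligands outside the 8 described, Pf4 and Ppbp differed in their irradiation change between cultures with and without DL1. The change with DL1 minus the change without was -1.89 ± 0.20 for Pf4 (log2, SE; limma adjusted p = 0.00950). Pf4 had 43.1, 47.5 and 61.2 FPKM in irradiated and 76.9, 74.0 and 68.7 FPKM in control cultures with DL1, and 201, 186 and 145 FPKM in irradiated and 68.3, 58.6 and 79.8 FPKM in control cultures without. For Ppbp it was -2.17 ± 0.28 (log2, SE; limma adjusted p = 0.0142). Ppbp had 9.09, 7.58 and 11.5 FPKM in irradiated and 12.7, 14.7 and 16.9 FPKM in control cultures with DL1, and 59.9, 55.3 and 38.3 FPKM in irradiated and 17.8, 12.3 and 19.9 FPKM in control cultures without. In both genes every irradiated library lay below every control library with DL1 and above every control library without it. The irradiation difference with DL1 passed for neither gene, at -0.54 ± 0.14 for Pf4 and -0.61 ± 0.20 for Ppbp (log2, SE; limma adjusted p = 0.0698 and 0.123).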

How the results depend on the processing

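Other pseudocounts, minimums, scalings and fits kept the direction of each ligand's difference, and 265 of 273 such values kept their side of the threshold, the exceptions being given with the results or here. With only the groups compared in the fit, the count of called ligands was 2 for irradiation with DL1, against 0, and 3 for irradiated with DL1 against control without, against 1. With no minimum, DL1 in irradiated cultures gave 6 called of 8. With the replicate block, 4 ligands were called for DL1 in irradiated cultures, as without it, and 2 for irradiation without DL1, where Ccl2 had limma adjusted p = 0.0574 and the numbers do not pair the cultures (correlations from -0.129 to 0.158). The block changed no other call, and in none of the other 4 pairs of groups did each number correlate best with itself. Leaving out 1 library gave counts of 0 freshly sorted, 2 to 3 for irradiation without DL1, 0 to 1 with DL1, 3 to 4 for DL1 in control and 4 in irradiated cultures, 0 for the difference of changes, and 1 to 2 for irradiated with DL1 against control without. A group left with 2 libraries kept the shared spread. Signs turned only in differences that had not passed. These ranged from -0.34 to 0.39 for Ccl6 and from -0.11 to 0.044 for Cxcl16 in freshly sorted cells, where only 4 of the 6 fits tested Cxcl16. For irradiation without DL1 they ranged from -0.083 to 0.34 for Ccl3 and from -0.33 to 0.086 for Ccl4. They ranged from -0.011 to 0.26 for Ccl4 with DL1, from -0.54 to 0.065 for Ccl2 and from -0.23 to 0.16 for Ccl4 for DL1 in control cultures, from -0.058 to 0.37 for Ccl3 and from -0.037 to 0.29 for Ccl9 in the difference of changes, and from -0.11 to 0.27 for Ccl4 in irradiated with DL1 against control without (all log2). The causes were not tested. Depth limits Ccl2, Ccl7 and Cxcl2, whose freshly sorted libraries held at most 12 fragments.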
